A study of Rattus norvegicus with 24 samples.

Results

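The 60 genes described here are those whose signal in the CA1 field of the rat hippocampus took a low and a high level among individual animals, separated by a gap in the values. For each gene the values of all arrays were sorted, and the largest gap between neighbouring values that left at least 4 arrays on each side was found. The members are the 60 genes with the largest gap among 8022 candidate genes, each with a probe set of exactly 1 gene symbol and a maximum log2 signal over 6, and each is represented by its probe set with the largest gap. A further 6 genes (C3, Acer2, Cd74, Fos, Nat8f3 and Ccn2), with gaps of 0.81 to 1.10 log2 units, would have qualified and were left out by the rule. The members were thus chosen by their gaps, measured on the same arrays, and the gaps and the low and high arrays they define are given as a description without a test. The rule did not use the group labels, but a gap is also wide where groups lie far apart.

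RNA was taken from CA1 of male Long-Evans rats and hybridised to Affymetrix rat arrays, 1 array per animal. The aged impaired group (8 arrays) held rats of 24 to 26 months with poor spatial learning in the Morris water maze, the aged unimpaired group (6 arrays) rats of the same age that learned well, and the young group (9 arrays) rats of 6 months. Animals are named below by group and replicate number. The labels name no aged unimpaired replicate 6, replicate 8 of that group was blank after the submitters' quality control, and the labels give no drug, genotype or batch.

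Long-Evans rats are an outbred stock, so animals of 1 group are not genetically identical. A probe set is a small number of short oligonucleotides from 1 stretch of a transcript, and its signal depends both on how much of that stretch is present and on how well it pairs with the probes. In a dissected piece of CA1 the signal also depends on which neighbouring cells were taken along and on what the animal experienced before death. The part of each in the divisions below was not tested, and fewer cells of a type and less RNA per cell cannot be told apart in such samples.

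The arrays were alike in general signal. Array medians were 4.20 to 4.28, and the median correlation of an array with the others over the candidate genes was 0.980 to 0.988. The difference between 3′ and 5′ control probe sets, a measure of RNA quality, was 1.15 to 1.55. Markers of CA1 pyramidal neurons (5 on the array, among them Wfs1 and Fibcd1) averaged 9.07 to 9.41 in impaired, 9.29 to 9.47 in unimpaired and 9.04 to 9.49 in young animals.

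The gap of a candidate gene had a median of 0.07 log2 units and a 95th percentile of 0.18. Among the members it was over 1 in 5 genes and over 0.5 in 30. It filled 8.00% to 41.9% of a member's whole range, with a median of 19.3%. In 31 members the gap was over 2 times the second largest gap allowed, and in 16 it was under 1.3 times that gap, so those 16 divisions are less clear. The smaller side held 4 arrays in 19 members, 5 in 13 and 9 or more in 11. The smaller side was the high one in 34 members and the low one in 26. In 14 members every array was over 6, while in 18 the median of the low arrays was under 5.

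**Figure D1:**
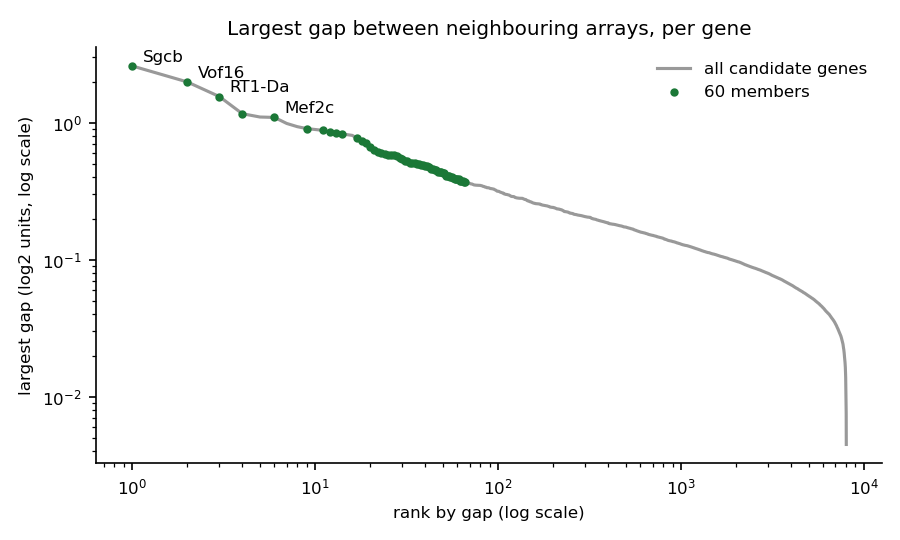
Largest gap (log2 units, log axis) of each of the 8022 candidate genes against its rank (log axis), with the 60 members as green points. Sgcb and Vof16 stand above the other members, and the curve has no step at the limit of 60.

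Just inside the limit stood Trps1, Krcc1 and Ino80e, each with a gap of 0.37. Just outside stood Sf3b1 at 0.37, Plagl1 at 0.36 and Slc4a2 at 0.36. Membership at this end is thus a matter of small differences.

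How the divisions lay across the groups is given as a description, since the same counts were not made over all candidate genes. High and low animals occurred in every group in 31 members. The smaller side lay in 2 groups in 22 members and in a single group in 7 (Glra2, Rnf6, Mgst1, Plac9, Aadat, Mpeg1 and Colec12). All arrays of a group were on 1 side in 7 members for the impaired group, 25 for the unimpaired and 5 for the young, the unimpaired group being the one with the fewest arrays. An impaired animal was on the high side for 20 to 32 members (median 28), an unimpaired animal for 22 to 35 (median 28.5) and a young animal for 18 to 35 (median 27). An animal belonged to the smaller side for 12 to 21 members in the impaired group, 6 to 16 in the unimpaired and 12 to 26 in the young. Young 4 was on the smaller side most often (26 members) and unimpaired 1 least often (6 members).

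**Figure D2:**
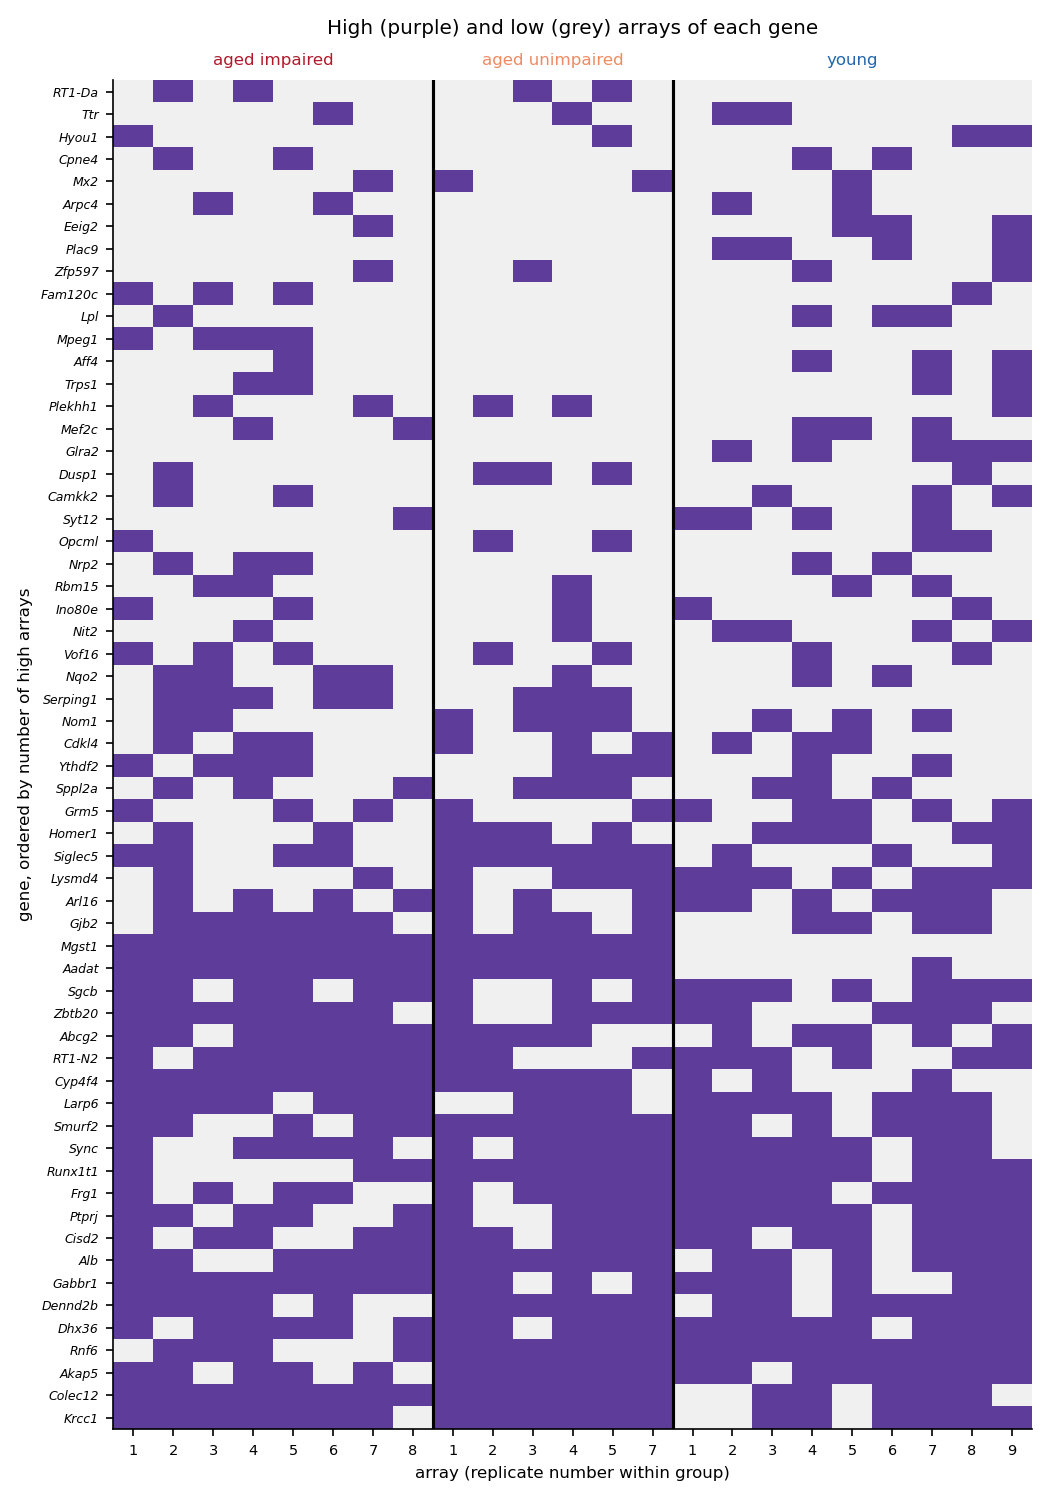
High (purple) and low (grey) side of each of the 60 members (rows, ordered by the number of high arrays) in each of the 23 arrays (columns, numbered by replicate within aged impaired, aged unimpaired and young). Mgst1 and Aadat follow age with at most 1 exception, and most other rows mix both sides within groups.

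Sgcb encodes beta-sarcoglycan, a membrane protein of the dystrophin-associated complex, and had the widest gap. Its lowest, median and highest log2 signals were 3.65, 8.41 and 9.16 in impaired animals, 3.65, 6.45 and 9.66 in unimpaired animals, and 3.45, 8.63 and 9.12 in young animals. No array lay between 5.42 and 8.02, a gap of 2.60 log2 units or 6.07-fold. Low animals were impaired 3 and 6, unimpaired 2, 3 and 5, and young 4 and 6. The low level thus occurred in each group and in 7 of 23 animals. Impaired minus young was -0.27 ± 1.05 (log2 difference ± SE, limma, adjusted p = 0.939). The 2 further probe sets named Sgcb overlapped between the same animals, at 6.83 to 7.64 in the low animals and 7.27 to 8.33 in the high ones for the first, and 7.72 to 8.21 against 7.85 to 8.59 for the second. The second put 21 of 23 arrays on the same side by its own largest gap.

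Vof16, annotated as a long noncoding RNA, came next with a gap of 1.99 log2 units. Its lowest, median and highest signals were 3.80, 5.09 and 8.63 in impaired, 3.81, 4.12 and 8.58 in unimpaired, and 3.80, 4.13 and 8.08 in young animals. The high animals were impaired 1, 3 and 5, unimpaired 2 and 5, and young 4 and 8, all at 7.42 or more, while the others were at 5.43 or less. The second probe set of Vof16 was dim, at 2.49 to 2.59 in all 23 arrays, and showed no such division.

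Mef2c, a transcription factor that responds to neuronal activity and shapes synapses, had a signal of 7.48, 7.97 and 10.22 (lowest, median and highest) in impaired animals, 7.85, 7.94 and 8.07 in unimpaired animals, and 7.27, 7.86 and 9.85 in young animals. The 5 high animals were impaired 4 and 8 and young 4, 5 and 7, and the 6 unimpaired animals stayed close together. A brighter Mef2c probe set overlapped, at 10.18 to 10.53 in these 5 animals and 9.92 to 10.46 in the others. Plekhh1, a protein with pleckstrin homology and FERM domains, was at 5.15 and 5.39 in impaired 3 and 7, at 5.25 and 5.11 in unimpaired 2 and 4 and at 6.26 in young 9. The other 18 arrays were between 2.46 and 3.94. A far brighter Plekhh1 probe set was at 9.46 to 10.39 in all arrays and showed no such division. Nqo2, a quinone reductase, was at 4.67 to 6.65 in 7 animals (impaired 2, 3, 6 and 7, unimpaired 4, young 4 and 6) and at 1.95 to 3.76 in the rest.

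Zbtb20, a zinc finger factor needed for CA1 identity in mice, was low in 7 animals at 6.59 to 8.33 and high in 16 at 9.15 to 10.01. Low animals were impaired 8, unimpaired 2 and 3, and young 3, 4, 5 and 9. Other Zbtb20 probe sets differed in this. A dim one, with a maximum of 5.98, followed the division without a clear gap, at 4.65 to 5.98 in the high animals and 4.09 to 4.84 in the low ones. Of 4 others that exceeded 6, the 2 brightest were at 11.13 to 11.52 and 11.05 to 11.77 in all arrays and showed no such division. One of the 4 ran the other way, at 7.18 to 8.08 in the high animals and 7.81 to 8.59 in the low ones.

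**Figure D3:**
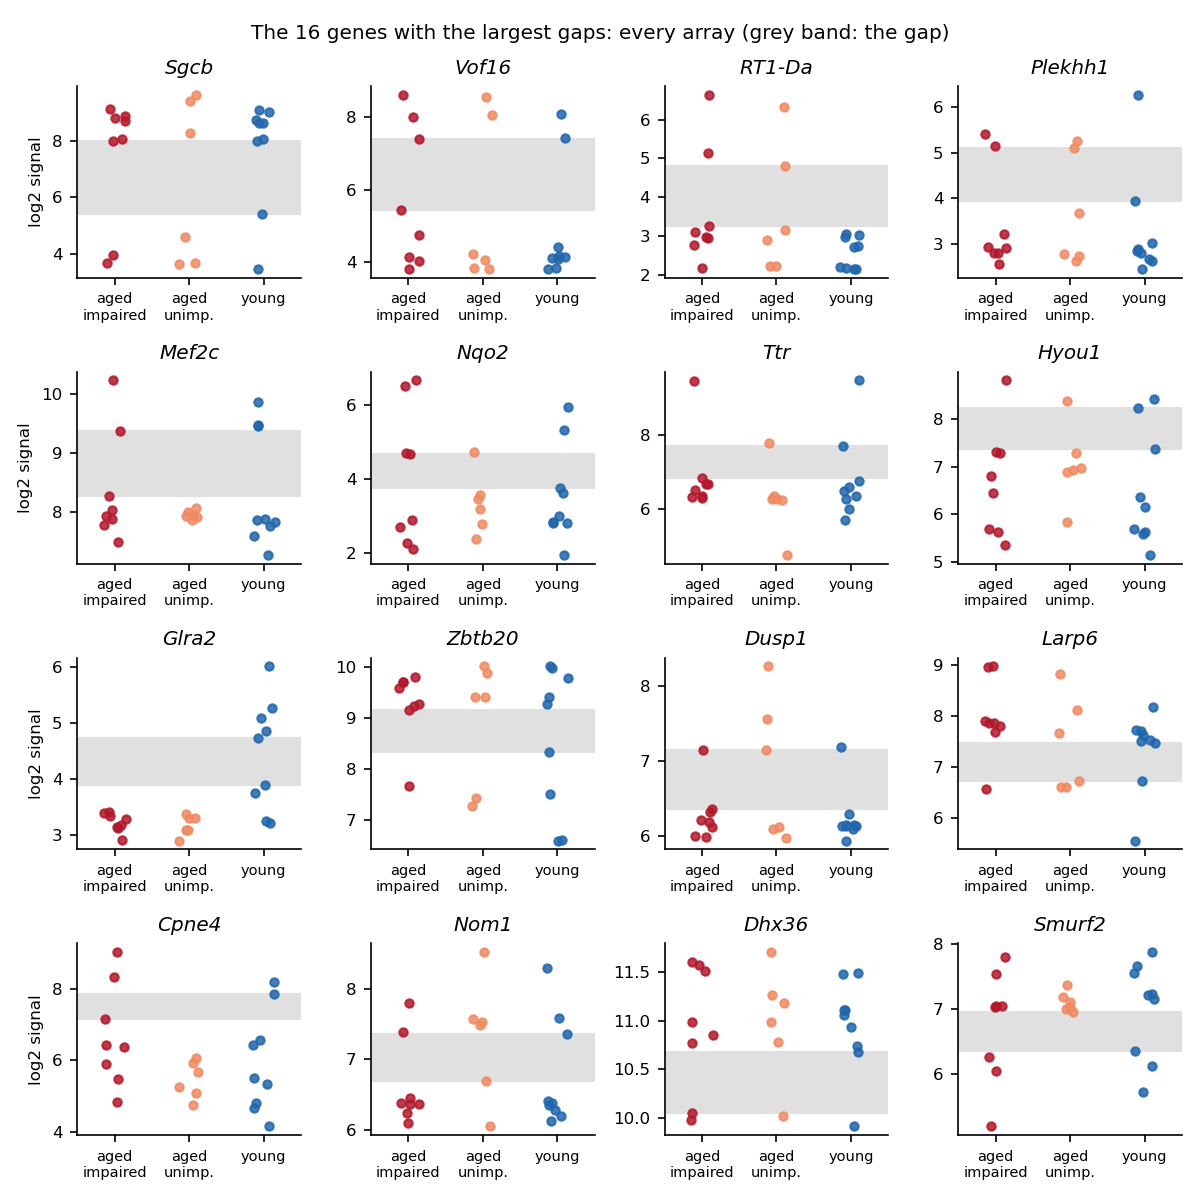
Log2 signal of every array for the 16 members with the largest gaps, in aged impaired (left), aged unimpaired (middle) and young animals (right), with the gap as a grey band. Sgcb, Vof16, Zbtb20 and Dusp1 have animals above and below the band in every group, and Glra2 has animals above it among young rats.

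Of the other members with the 20 largest gaps, Hyou1 (a chaperone of the endoplasmic reticulum) was at 8.22 to 8.80 in impaired 1, unimpaired 5 and young 8 and 9 and at 7.36 or less elsewhere. Larp6, which binds collagen mRNAs, was low, at 5.57 to 6.73, in 6 animals (impaired 5, unimpaired 1, 2 and 7, young 5 and 9). Dhx36, a helicase that unwinds G-quadruplexes, was at 9.92 to 10.05 in impaired 2 and 7, unimpaired 3 and young 6, and at 10.68 to 11.70 in the other 19. Smurf2, a ubiquitin ligase of TGF-beta signalling, was low in 6 animals at 5.19 to 6.35, none of them unimpaired. These 4 genes each split at least 1 group.

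Gjb2 (connexin 26, a gap junction protein) was at 6.53 to 8.32 in 6 impaired, 4 unimpaired and 4 young animals and at 4.66 to 5.93 in the rest. Abcg2, an efflux transporter of the blood-brain barrier, was at 5.96 to 8.04 in 7 impaired, 4 unimpaired and 5 young animals, and at 4.38 to 5.37 in the rest. Sync (syncoilin, an intermediate filament protein) was at 6.42 to 7.15 in impaired 2, 3 and 8, unimpaired 2 and young 6 and 9. Nit2, an omega-amidase, was at 6.03 to 7.52 in impaired 4, unimpaired 4 and young 2, 3, 7 and 9. None of these 4 separated the groups.

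Dusp1 was high in the same animals as some other genes of its class, and RT1-Da in the same animals as RT1-Ba. Their promoters are printed because each class is known for a shared promoter element. Dusp1 is a phosphatase of MAP kinases and an immediate early gene, whose class is known for the cAMP response element. RT1-Da is the alpha chain of a rat MHC class II molecule, which presents antigen, and MHC class II promoters are known for a Y box that holds CCAAT. Sequences are from RefSeq (GRCr8), from 250 bases before to 50 after the annotated start, at chr10:17184603-17184902 for Dusp1 and chr20:4515165-4515464 for RT1-Da, both on the plus strand. Capitals mark TGACG or its reverse complement CGTCA in Dusp1, and CCAAT or its reverse complement ATTGG in RT1-Da.
Dusp1 promoter: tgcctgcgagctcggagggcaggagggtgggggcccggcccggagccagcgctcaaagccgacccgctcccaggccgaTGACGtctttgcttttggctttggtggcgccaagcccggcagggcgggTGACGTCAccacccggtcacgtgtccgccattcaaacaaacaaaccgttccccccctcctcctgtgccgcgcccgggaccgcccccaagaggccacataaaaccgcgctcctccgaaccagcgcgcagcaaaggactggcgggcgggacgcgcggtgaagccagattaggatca
RT1-Da promoter: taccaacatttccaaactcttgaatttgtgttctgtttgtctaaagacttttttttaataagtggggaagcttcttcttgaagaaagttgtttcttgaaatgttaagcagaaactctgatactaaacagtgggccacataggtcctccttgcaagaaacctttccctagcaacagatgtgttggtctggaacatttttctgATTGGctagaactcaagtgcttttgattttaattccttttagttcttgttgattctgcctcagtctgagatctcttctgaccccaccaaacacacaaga
The Dusp1 window held 3 matches, 2 of them overlapping, and the RT1-Da window held 1. TGACG on either strand occurred in 21.2% of 33469 promoter windows of 300 bases, and CCAAT on either strand in 37.5%. Of the 44 members with at least 1 such window, 12 held TGACG and 15 held CCAAT in any of their windows. The percentages count windows and the member counts are of genes, so they cannot be compared directly. The windows of Cd74 and of RT1-Ba, a further MHC class II gene, also held CCAAT. No window of Homer1, which is set beside Dusp1 below, held TGACG on either strand. These letters are common, and a match is not a bound site.

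Dusp1 had a signal of 5.99, 6.21 and 7.14 (lowest, median and highest) in impaired animals, 5.97, 6.64 and 8.26 in unimpaired animals and 5.94, 6.14 and 7.18 in young animals. High animals were impaired 2, unimpaired 2, 3 and 5, and young 8, and the 18 low arrays spanned 5.94 to 6.37. Arc, an immediate early gene of dendrites that is no member, divided all 23 arrays in the same way, at 10.45 to 10.99 in these 5 animals and up to 10.28 in the others. Fos was over its own gap in 4 of the 5, at 5.89 in impaired 2, 7.25 and 7.21 in unimpaired 3 and 5, and 6.18 in young 8, and unimpaired 2 had the next value at 4.99. The mean of 8 immediate early genes without Dusp1 and Fos was 7.17 in impaired 2, 7.13, 7.38 and 7.56 in unimpaired 2, 3 and 5, and 7.47 in young 8, which are the 5 highest of 23 arrays. In the other animals it was 6.30 to 7.12.

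Homer1 encodes a postsynaptic scaffold with a short form induced by activity. Its signal was 3.53, 5.55 and 8.00 in impaired animals, 5.86, 6.93 and 8.46 in unimpaired animals and 3.92, 6.77 and 8.46 in young animals (lowest, median and highest). The 5 Dusp1-high animals were all on its high side, at 8.00 in impaired 2, 8.46, 7.11 and 8.19 in unimpaired 2, 3 and 5, and 8.46 in young 8. A further 6 animals were high for Homer1 and low for Dusp1. Other Homer1 probe sets with a maximum over 6 overlapped between the Homer1-high and Homer1-low animals. The one with the largest difference in medians was at 8.82 to 10.39 in the high animals and 7.86 to 9.45 in the low ones. In it impaired 2 was at 8.82, unimpaired 2, 3 and 5 at 9.50, 8.94 and 9.25, and young 8 at 10.39. Young 3, low for Dusp1, was also at 10.39 in it.

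RT1-Da was at 5.13 and 6.64 in impaired 2 and 4 and at 6.34 and 4.81 in unimpaired 3 and 5, while every other array, all 9 young ones among them, was between 2.15 and 3.26. RT1-Ba was highest in the same 4 animals, at 3.96 and 4.11 in the impaired and 4.35 and 3.13 in the unimpaired, and no other array passed 2.95. Cd74, the invariant chain of MHC class II, was at 8.46, 8.59, 8.47 and 9.10 in them, but also at 8.60 in impaired 8 and 8.13 in unimpaired 4, so that it was high in more aged animals than RT1-Da. The class II genes RT1-Bb and RT1-Db1 stayed at 3.07 to 3.32 and 4.15 to 4.79 in all arrays. The mean of 6 antigen presentation genes without RT1-Da and Cd74 was 5.24 and 5.11 in impaired 2 and 4 and 5.28 and 4.95 in unimpaired 3 and 5. Unimpaired 5 ranked 9 among the 23 arrays in this mean, and young 5, low for RT1-Da, ranked 4 at 5.06. RT1-Da differed by 1.05 ± 0.56 between impaired and young animals and did not pass the threshold (limma, adjusted p = 0.357). It passed the limit of 6 only through aged animals.

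Ttr and Mx2 belong to the choroid plexus and interferon lists. Ttr, the thyroxine carrier made by choroid plexus, was at 9.50 in impaired 6, 7.79 in unimpaired 4 and 9.50 and 7.72 in young 2 and 3, and between 4.74 and 6.83 elsewhere. The 6 defining choroid plexus genes (Kl, Folr1, Kcne2, Sostdc1, Aqp1 and Cldn2) were between 1.72 and 3.76 in all 23 arrays. The mean of 9 choroid plexus and ependyma markers without Ttr was 3.68 to 3.94, with impaired 6 at 3.84, unimpaired 4 at 3.79 and young 2 and 3 at 3.85 and 3.72. Impaired 6 and young 2 ranked 3 and 2 among the 23 arrays in this mean, and young 3 ranked 22. Mx2, an interferon-induced GTPase, was at 9.20 in impaired 7, 8.11 and 7.84 in unimpaired 1 and 7 and 7.86 in young 5, against 5.74 to 7.26 elsewhere. A further Mx2 probe set did not follow this, at 4.80 to 5.85 in these animals and 4.33 to 6.78 in the others. The other 8 interferon genes on the array were between 1.51 and 5.55 in all arrays. Their mean was 2.95 in impaired 7, 2.84 and 2.83 in unimpaired 1 and 7 and 3.03 in young 5, against 2.74 to 3.13 in the others, and impaired 7 and young 5 ranked 3 and 2 among the 23 arrays. The part of either list in the Ttr and Mx2 divisions was not tested.

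Cpne4 (a calcium-dependent membrane-binding copine), Nrp2 (a semaphorin receptor) and Lpl (lipoprotein lipase) were high in nearly the same animals. Cpne4 was at 9.02 and 8.34 in impaired 2 and 5 and at 7.85 and 8.18 in young 4 and 6, and between 4.16 and 7.14 in the rest. Nrp2 was at 7.67 and 7.50 in that impaired pair and 8.00 and 7.45 in that young pair, and it was also high in impaired 4 at 7.46. The sides of Cpne4 and Nrp2 matched in 22 of 23 arrays and those of Cpne4 and Lpl in 21. Lpl was at 8.70 in impaired 2 and at 8.97, 8.92 and 8.98 in young 4, 6 and 7. No unimpaired animal was high for any of the 3 genes.

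Grik4, a kainate receptor subunit of CA3 and listed among the CA3 and CA2 markers, divided the arrays exactly as Cpne4 did, at 6.31 and 5.76 in impaired 2 and 5 and 5.95 and 5.88 in young 4 and 6, against 5.62 or less. Kcnq5 (a potassium channel) and Prss23 (a serine protease) made the same division. The mean of the 10 CA3 and CA2 markers was 6.95 and 6.62 in impaired 2 and 5 and 6.55 and 6.56 in young 4 and 6, the 4 highest of 23 arrays. It was 6.21 to 6.52 in the other animals. Over the groups it spanned 6.21 to 6.95 in impaired, 6.28 to 6.39 in unimpaired and 6.25 to 6.56 in young animals. This mean includes Grik4, and only 6 of the 10 markers exceeded 6. Not every marker followed the division: Rgs14 and Bok were higher in young 2 and 3 than in young 4 and 6. CA1 markers averaged 9.20 and 9.28 in impaired 2 and 5 and 9.04 and 9.12 in young 4 and 6. Other marker lists were high in these animals too. The mean of 7 dentate granule cell markers was 4.64 and 4.61 in impaired 2 and 5 and 4.79 and 4.63 in young 4 and 6, but also 4.61 in impaired 6. By group it spanned 4.37 to 4.64 in impaired, 4.28 to 4.51 in unimpaired and 4.36 to 4.79 in young animals. Only 2 of the 7, Prox1 and Dock10, exceeded 6. Prox1 was at 7.63 and 8.33 in impaired 2 and 5, 8.58 and 8.15 in young 4 and 6, and 8.14 in impaired 6. Dock10 was at 9.62 and 9.67 in impaired 2 and 5, 9.90 and 9.31 in young 4 and 6, and 9.82 in impaired 6. The mean of 10 markers of meninges and fibroblasts was highest in young 4 at 5.38, impaired 2 at 5.16 and young 6 at 5.09, while impaired 5 was at 4.74, within the range of the others. This mean spanned 4.74 to 5.16 in impaired, 4.60 to 4.78 in unimpaired and 4.74 to 5.38 in young animals. The part of these markers in the divisions was not tested.

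Pairs of members mostly divided the arrays differently. Of 1770 pairs, 7 put at least 21 of 23 arrays on the same side, and none put all 23 there. Beside Cpne4 with Nrp2, the pair Mgst1 and Aadat matched in 22 arrays. Matches of 21 were Aff4 with Trps1, Colec12 with Krcc1, Cpne4 with Lpl, Fam120c with Mpeg1 and RT1-N2 with Gabbr1. Aff4, a scaffold of the super elongation complex, was at 7.56 in impaired 5 and 7.55, 7.68 and 8.62 in young 4, 7 and 9. A set of 4 genes outside the members (Zbtb41, Nrp1, Nrxn3 and Ryr2) divided all arrays in this way, Cant1 divided them as Arpc4 did, and Slc4a4 as Dennd2b did with the sides exchanged. Such matches rest on few animals, since 4 to 5 arrays define most of them.

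Some matches joined neighbouring genes. All 60 members were placed on rat chromosomes through RefSeq (GRCr8), with 7 on chromosome 1 and fewer on each other chromosome. The class I MHC gene RT1-N2 and Gabbr1, a subunit of the GABA-B receptor, lie within 2000000 bases on chromosome 20. RT1-N2 had signals of 5.97, 7.38 and 8.08 (lowest, median and highest) in impaired, 3.38, 6.73 and 7.30 in unimpaired and 3.89, 7.30 and 7.85 in young animals. Gabbr1 had signals of 7.08, 7.76 and 7.99 in impaired, 5.98, 7.18 and 7.59 in unimpaired and 5.91, 7.45 and 8.62 in young animals. On the probe sets used here both were low in unimpaired 3 and 5 and young 4, 6 and 7, and RT1-N2 alone was low in impaired 2 and unimpaired 4. Other Gabbr1 probe sets did not follow this. The 2 brightest were at 11.65 to 12.03 and 12.20 to 12.54 in all arrays and showed no such division. A further bright probe set ran the other way, at 8.88 to 10.93 in the Gabbr1-low animals and 7.31 to 9.67 in the high ones. The neighbour RT1-Da shared its side with RT1-N2 in 5 of 23 arrays, and 3 of the 4 RT1-Da-high animals (impaired 2, unimpaired 3 and 5) were low for RT1-N2.

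Nom1, a nucleolar protein, was at 7.35 to 8.52 in impaired 2 and 3, unimpaired 1, 3, 4 and 5, and young 3, 5 and 7, and at 6.05 to 6.69 in the other 14. Its neighbour Dnajb6, a co-chaperone, was high in the same 9 animals and in unimpaired 7, at 11.17 or more against 10.82 or less. Cmss1, a neighbour of Nit2, matched it in 22 arrays, and Hspa2, a chaperone gene near the kinase anchor Akap5, matched that gene in 21. Near Aff4, Vdac1 and Hspa4 matched it in 22 arrays and Kif3a in 21, while Ptpro, near Mgst1, was high where Mgst1 was low in 21. The gaps of Hspa4, Kif3a and Vdac1 were 0.10, 0.11 and 0.18 log2 units, below the 95th percentile of the candidate genes. Of 1182 pairs of a member with a candidate gene within 2000000 bases, 13 (1.10%) matched or opposed each other in at least 21 arrays. A pair of members is counted from each side, as RT1-N2 with Gabbr1 is among the 13. The same held for 1245 of 480078 other pairs (0.259%). Neighbouring pairs share genes and arrays, so the shares are a description.

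**Figure D4:**
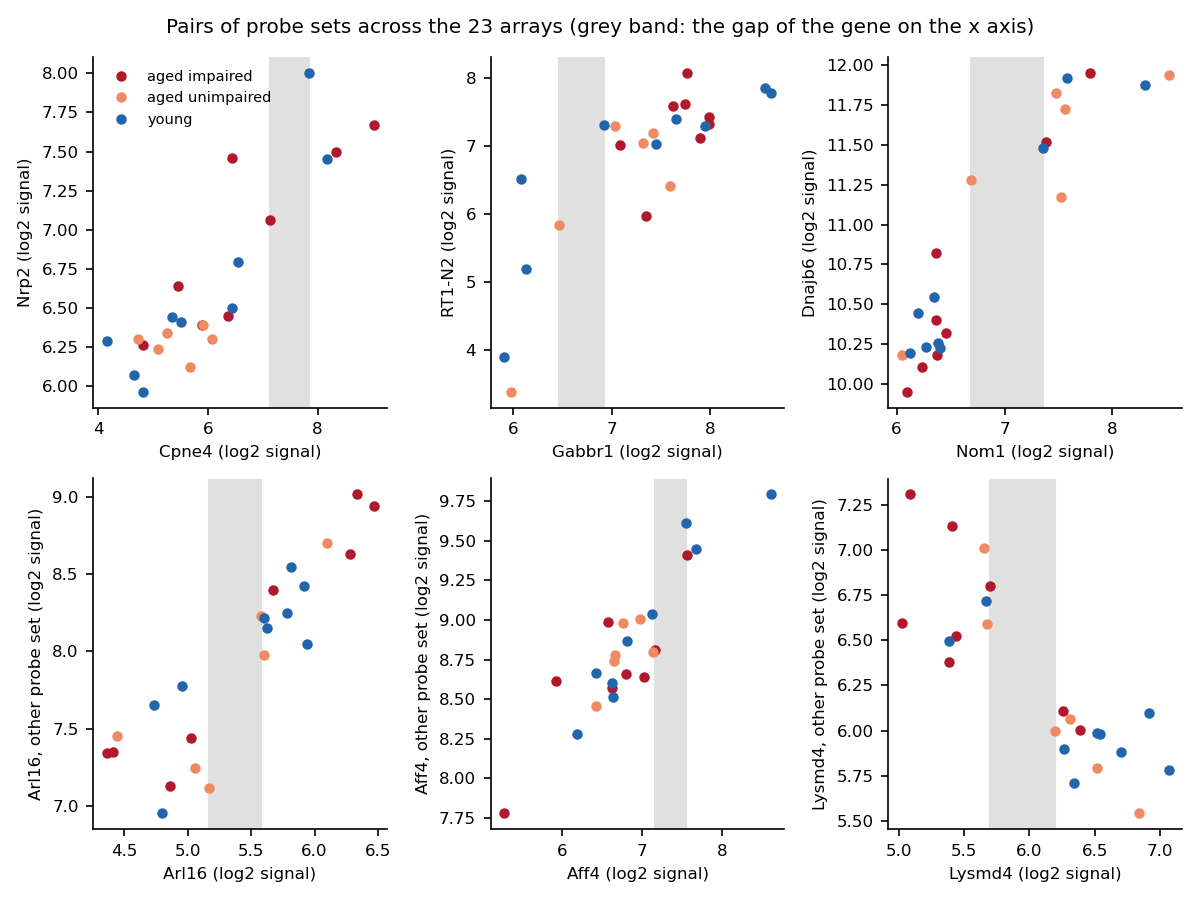
Log2 signal of 1 probe set against another across the 23 arrays, coloured by aged impaired, aged unimpaired and young, with the gap of the gene on the x axis in grey. Cpne4 with Nrp2, Gabbr1 with RT1-N2, Nom1 with Dnajb6, and Arl16 and Aff4 with a further probe set of their own rise together, while a further Lysmd4 probe set runs the opposite way.

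Further probe sets of the same genes were seen by the rule, which kept the one with the largest gap, so they are a description of the same animals and no independent check. Of the 60 members, 23 had no other probe set of that symbol and 26 had at least 1 other with a maximum over 6, making 46 such probe sets. Of the 46, 1 probe set each of Sgcb, Cdkl4, Runx1t1, Arl16 and Aff4 (5 in all) put at least 21 arrays on the same side by their own largest gap. The high and low animals did not overlap in 4 probe sets, of Runx1t1, Opcml, Arl16 and Aff4. Of the 46, 31 had a higher and 15 a lower median in the high animals. Their high minus low difference in medians had a median of 0.05 log2 units, against 1.18 for the members' own probe sets. A division named for a gene is thus that of the probe set used. For Arl16, a small GTPase, the members' probe set was at 5.58 to 6.46 in high and 4.36 to 5.17 in low animals, and the other was at 7.98 to 9.02 and 6.95 to 7.77. For Opcml, a neuronal adhesion molecule, the other probe set was at 10.15 to 10.83 in impaired 1, unimpaired 2 and 5, and young 7 and 8, and at 9.21 to 10.03 in the rest.

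Lysmd4, a protein with a LysM domain, had 3 bright probe sets, of which 2 ran against the one used here. The first was at 6.20 to 7.07 in 13 animals and 5.02 to 5.70 in the other 10. A further one was at 5.54 to 6.11 in those 13 and 6.38 to 7.31 in the 10, with every array on the exchanged side. The other was at 5.60 to 6.40 in the 13 and 6.38 to 7.12 in the 10. The sum of transcripts of this gene cannot be read from any of them. The first probe set was high in 2 of 8 impaired, 4 of 6 unimpaired and 7 of 9 young animals.

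Group differences were tested with limma across all 8022 candidate genes, with Benjamini-Hochberg adjustment, and a gene was called at an adjusted p under 0.05. Between impaired and young animals 9 of the 60 members were called, of which 6 rose and 3 fell, and 3.5% of the candidate genes were called. Between unimpaired and young animals 3 members were called, 2 up and 1 down, against 0.823% of the candidates. Between all aged and young animals 7 members were called, 6 up and 1 down, against 3.66% of the candidates. The rule selects widely spread genes: the median size of the impaired minus young difference was 0.38 log2 units in the members and 0.07 in all candidates, and the median SE was 0.34 and 0.07. Of the candidates called, 82.2% rose between impaired and young animals and 83.7% between aged and young animals, against 66.6% and 71.9% when each array was first centred on its median. Shares called in the members and the candidates are therefore set side by side, and nothing is read from them.

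Mgst1, a microsomal glutathione transferase, was at 6.83, 7.33 and 7.61 in impaired, 6.73, 7.33 and 7.59 in unimpaired and 5.13, 5.88 and 6.22 in young animals (lowest, median and highest). Every aged animal lay above every young one. The difference was 1.47 ± 0.14 for impaired minus young (adjusted p = 6.73e-07) and 1.43 ± 0.15 for unimpaired minus young (adjusted p = 1.10e-05). Aadat, an aminotransferase that makes kynurenic acid, was at 6.82, 7.13 and 7.40 in impaired, 6.62, 7.07 and 7.29 in unimpaired and 5.78, 6.11 and 6.64 in young animals. Young 7 was the 1 young animal on its high side. It differed by 1.001 ± 0.110 (adjusted p = 1.09e-05) and by 0.94 ± 0.12 (adjusted p = 1.72e-04) in the same comparisons. The divisions of both genes coincide with age, so the rule had in effect used that contrast and their tests are no independent evidence. Gsta1, another glutathione transferase gene, divided the arrays as Mgst1 did.

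Serping1, the C1 inhibitor of complement, and Mpeg1, a pore-forming protein of macrophages, were higher in impaired than in young animals. Serping1 was at 4.27, 5.95 and 7.96 in impaired, 4.98, 5.79 and 6.84 in unimpaired and 2.88, 4.19 and 5.19 in young animals. Its high side held 5 impaired and 3 unimpaired animals and no young one, and impaired minus young was 1.94 ± 0.41 (adjusted p = 0.00800). Unimpaired minus young was 1.62 ± 0.45 for Serping1 (limma, adjusted p = 0.102), and impaired minus unimpaired was 0.32 ± 0.46 (adjusted p = 0.928). Mpeg1 was at 4.90, 5.28 and 6.76 in impaired, 4.05, 4.87 and 5.13 in unimpaired and 3.73, 4.45 and 5.003 in young animals. Its 4 high animals, impaired 1, 3, 4 and 5, were all impaired. The difference of Mpeg1 was 1.03 ± 0.23 against young (adjusted p = 0.0110) and 0.68 ± 0.26 against unimpaired animals (adjusted p = 0.622). Serping1 passed the limit of 6 only through aged animals, and the Mpeg1 probe set used here only through impaired 3. Both probe sets were thus admitted through the group where they are high, and their tests are no independent evidence. A brighter Mpeg1 probe set overlapped, at 10.43 to 10.88 in the 4 Mpeg1-high animals and 9.22 to 10.79 in the others. In it impaired 7 and unimpaired 5, low on the probe set used here, were at 10.79 and 10.76. Microglia and macrophage markers (12 on the array) averaged 4.996 to 5.34 in impaired, 4.99 to 5.24 in unimpaired and 4.72 to 5.10 in young animals, and their part in these results was not tested.

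Colec12, a scavenger receptor of the collectin family, and Cyp4f4, a fatty acid hydroxylase, rose as well. Colec12 was at 7.05, 7.62 and 8.21 in impaired, 6.75, 7.57 and 8.33 in unimpaired and 5.61, 6.64 and 7.63 in young animals. All aged animals were on its high side, with 5 of 9 young ones, and the young low animals were 1, 2, 5 and 9. Cyp4f4 was at 5.34, 5.61 and 6.04 in impaired, 4.72, 5.46 and 6.40 in unimpaired and 4.08, 4.65 and 5.53 in young animals. Its high side held all 8 impaired, 5 of 6 unimpaired and 3 of 9 young animals. Impaired minus young was 0.997 ± 0.257 for Colec12 (adjusted p = 0.0280) and 0.90 ± 0.21 for Cyp4f4 (adjusted p = 0.0148). Unimpaired minus young was 0.96 ± 0.28 for Colec12 (limma, adjusted p = 0.129) and 0.78 ± 0.23 for Cyp4f4 (adjusted p = 0.125). Cyp4f4 passed the limit of 6 only through impaired 7 and unimpaired 3, at 6.04 and 6.40, so its test is no independent evidence either. The low side of Colec12 was all young, as that of Rnf6 below was all impaired, and the same limit holds for both. Without any 1 of impaired 2, 5 or 7 or young 2 or 9, the adjusted p of Colec12 passed 0.05, up to 0.0614.

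Glra2, Rnf6 and Runx1t1 fell in impaired animals. Glra2, a glycine receptor subunit typical of the immature brain, was at 2.92, 3.23 and 3.42 in impaired, 2.91, 3.20 and 3.38 in unimpaired and 3.22, 4.74 and 6.02 in young animals. High animals were young 2, 4, 7, 8 and 9, so that the young group itself held both levels. The difference was -1.22 ± 0.28 for impaired minus young (adjusted p = 0.0148) and -1.27 ± 0.31 for unimpaired minus young (adjusted p = 0.0497). Glra2 passed the limit of 6 only through young 8, at 6.02, and its high side was all young, so its choice used this contrast and these tests are no independent evidence. The unimpaired call was lost without any 1 of 19 arrays (all aged arrays and young 2, 4, 7, 8 and 9), with an adjusted p of up to 0.124.

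Rnf6, a RING ubiquitin ligase, was at 3.12, 6.50 and 7.33 in impaired, 6.64, 7.43 and 8.19 in unimpaired and 6.96, 8.15 and 8.47 in young animals. Low animals were impaired 1, 5, 6 and 7, and the difference was -1.87 ± 0.43 against young (adjusted p = 0.0142). Runx1t1, a transcriptional corepressor, was at 6.67, 7.50 and 8.28 in impaired, 8.06, 8.27 and 8.50 in unimpaired and 7.55, 8.45 and 8.74 in young animals. On its low side were 5 of 8 impaired animals and young 6, and no unimpaired animal was. Runx1t1 differed by -0.73 ± 0.18 (adjusted p = 0.0215), but the call was lost without impaired 5 (adjusted p = 0.0522) and with the brightest probe set of the gene (adjusted p = 0.0933).

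**Figure D5:**
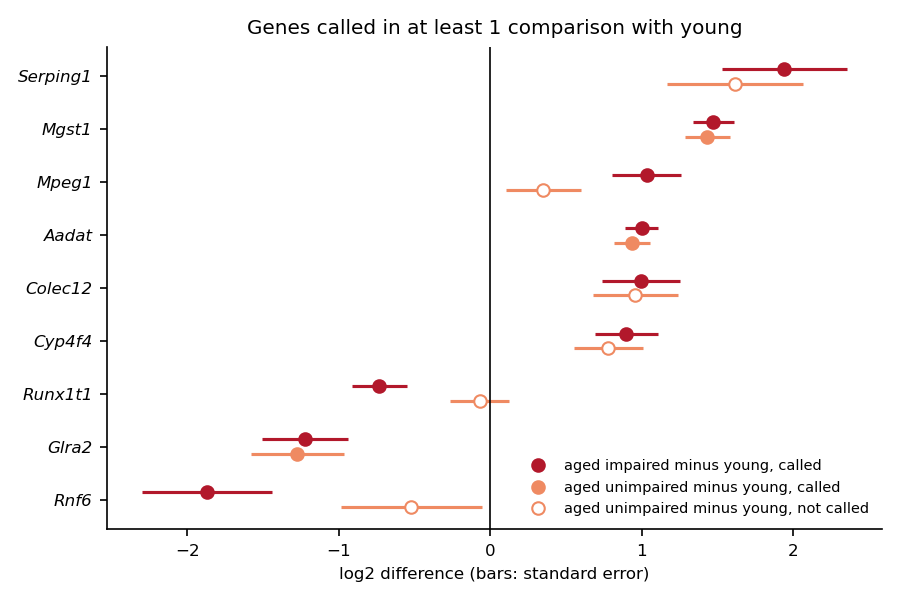
Log2 difference from young animals with its standard error for the 9 members called in at least 1 comparison, for aged impaired (red) and aged unimpaired animals (orange). Filled points passed the threshold, and Mgst1, Aadat and Glra2 are filled in both.

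Between impaired and unimpaired animals no gene was called with limma, 0 of 60 members and 0% of the candidates, while 579 candidates and 7 members had an unadjusted p under 0.05. The smallest p among the members belonged to Runx1t1, with a difference of -0.66 ± 0.20 (adjusted p = 0.567), then Rnf6 at -1.34 ± 0.48 (adjusted p = 0.595) and Mpeg1 at 0.68 ± 0.26. Runx1t1 had 5 of 8 impaired and 0 of 6 unimpaired animals on its low side, and Rnf6 had 4 of 8 and 0 of 6. These differences were not distinguishable from the spread between animals at this number of arrays once all candidates were considered. The comparisons with young animals share the 9 young arrays and are not independent of each other.

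The other members gave both levels in 1 or more groups without a call in any comparison as fitted above. They were Siglec5, Cdkl4, Arpc4, Eeig2, Camkk2, Plac9, Ythdf2, Alb, Frg1, Ptprj, Zfp597, Syt12, Dennd2b, Fam120c, Akap5, Grm5, Rbm15, Sppl2a, Cisd2, Krcc1, Trps1 and Ino80e, with gaps of 0.37 to 0.58 log2 units. Some were chosen for mention after their values were seen. Siglec5, a lectin of myeloid cells, was at 3.40, 4.03 and 5.88 in impaired, 4.54, 5.45 and 6.03 in unimpaired and 2.17, 3.61 and 5.68 in young animals, and all 6 unimpaired animals were on its high side. Siglec5 passed the limit of 6 only through unimpaired 3, at 6.03, so its sides and tests are no independent evidence. Plac9, a small secreted protein, was high in young 2, 3, 6 and 9, at 6.86 to 7.82, and at 4.14 to 6.36 in every other animal. The high side of Plac9 was all young, so its choice used this contrast and its tests against young animals are no independent evidence. Ptprj, a receptor tyrosine phosphatase, spread widely, at 6.17, 8.18 and 9.72 in impaired, 5.71, 8.44 and 10.60 in unimpaired and 6.37, 7.87 and 9.09 in young animals. Grm5, the metabotropic glutamate receptor 5, was high in 3 of 8 impaired, 2 of 6 unimpaired and 5 of 9 young animals, at 9.39 to 9.99 against 8.02 to 8.99.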

How the data were processed

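Gene expression in CA1 was measured in 23 animals on Affymetrix rat 230 2.0 arrays. The deposited values are log2 signals per probe set, made by the authors with GCRMA per the submitters' processing notes. No source used here gives its version or settings. Of 31099 probe sets, 20832 carried 1 gene symbol, 436 several and 9831 none, by GEO's platform annotation. One of 24 sample columns was blank. Values were used as deposited, with groups and replicate numbers from the labels. Young replicate 9, whose column lies among those of aged unimpaired animals, was kept as labelled. Where the labels name biological replicates, 1 array stands for 1 animal. The number of arrays limits the precision.

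Members were found by the gap rule given above among 10464 probe sets of 8022 genes. The members and marker lists were chosen with earlier results of these data known. A limma model of 3 group means (limma 3.58.1, R 4.3.3) was fitted to all candidate genes, with Benjamini-Hochberg adjustment in each of 4 comparisons, and was tested on simulated data. The aged mean weighted the aged groups by their arrays. Low and high arrays were never tested against each other. Named genes were the 20 members with the largest gap, all called members (or the 3 with the smallest p), members that matched another in 22 arrays, stood in a marker list, separated a group or lay within 2000000 bases of another, those with other probe sets, the genes at the limit and up to 10 outside genes with an identical division, by size of gap. Alternatives were other limits on the maximum and on arrays per side, quantile normalization, centring, the brightest probe set, array weights, trended and robust moderation, RNA quality as a covariate, a replicate block and leaving out each array. Names and neighbours came from RefSeq (GRCr8). The files name no genome build. Figures were drawn with matplotlib 3.10.9.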

Additional observations from a re-analysis of the deposited data

Results flagged for a closer look

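In 17 of 180 tests of a member within a group, the highest or lowest array lay apart from the others of that group by more than Dixon's 95% limit. Chance flags about 1 in 20 such tests, and the members were selected for gaps in these same values. No cause was tested.

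Most flags were arrays of the aged impaired group. Impaired 2 was highest for Dusp1 (7.14, next 6.37). Impaired 6 was highest for Ttr (9.50, next 6.83) and lowest for Ythdf2, an mRNA m6A reader (6.37, next 8.82). Impaired 3 was highest for Mpeg1 (6.76, next 5.67) and lowest for Abcg2 (5.25, next 6.46). Impaired 8 was lowest for Zbtb20 (7.67, next 9.15), impaired 4 highest for Nit2 (7.52, next 5.24), impaired 7 highest for Mx2 (9.20, next 6.73) and impaired 1 highest for Opcml (9.48, next 8.30).

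Among unimpaired animals, replicate 2 was lowest for Sync (7.15, next 7.85), replicate 5 lowest for RT1-N2 (3.38, next 5.84) and replicate 3 highest for Zfp597 (6.10, next 4.79). Among young animals, replicate 9 was highest for Plekhh1 (6.26, next 3.94) and replicate 7 for Aadat (6.64, next 6.18). Young 8 was highest for Dusp1 (7.18, next 6.29) and for Fam120c (8.44, next 7.49), and young 3 was lowest for Akap5 (5.63, next 6.76).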

How the results depend on the processing

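Under other rules 44 to 53 of the 60 members stayed (44 with at least 3 arrays per side, 45 with a maximum over 5, 53 after quantile normalization), and 52 to 58 when 1 array was left out. Ino80e, Trps1 and Krcc1 stayed in 11, 13 and 16 of 29 alternatives, and 27 members stayed in all. No difference of a called member changed sign. With array weights, 132 genes and 5 members were called between unimpaired and young animals (66 and 3 without). Leaving out 1 array gave 29 (without unimpaired 4) to 78 genes in that comparison and 193 (without young 2) to 349 between aged and young animals. The cause was not tested. Glra2 in unimpaired animals was also lost under quantile normalization, a maximum over 5, the RNA quality covariate and the replicate block, at an adjusted p of up to 0.0941. The aged call of Mpeg1 was lost without any 1 of 10 arrays (impaired 1, 4 and 5, unimpaired 2, young 1 to 6), with an adjusted p of up to 0.0974. Lysmd4 was called between impaired and young animals in 7 alternatives, at an adjusted p down to 0.0191. So were Plac9 in 3 (0.0172), Fam120c in 2 (0.0271) and Homer1 in 1 (0.0355). The Homer1 call came with the brightest probe set of the gene, while the probe set described above had an adjusted p of 0.508 (limma). Between unimpaired and young animals Siglec5 was called in 2 (0.0360), Cyp4f4 in 1 (0.0429) and Lpl in 1 (0.0440). Between aged and young animals Rnf6 was called in 6 (0.0271), Plac9 in 2 (0.0258), and Fam120c (0.0285), Siglec5 (0.0383) and Runx1t1 (0.0466) in 1 each. The limits given above for Plac9, Siglec5, Cyp4f4 and Rnf6 hold here too, so their calls are no independent evidence. Replicate numbers did not pair the samples (correlations of -0.251 to 0.144 in 20 pairs). With the replicate block, 225, 47, 0 and 223 genes and 9, 2, 0 and 6 members were called for impaired and unimpaired against young, impaired against unimpaired, and aged against young. Between impaired and unimpaired animals 0 genes were called under every alternative run. Dim low levels, under 4 in 6 members, bound how well a gap is measured.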
